A study of Mus musculus with 6 samples.

Results

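The 10 genes described here take iron into the cell, store or export it, and make or break down heme, the iron-carrying group of many enzymes. They were chosen by function and with fold changes of the same comparison already known, among them the large rise of Alas2. Their changes with IL-33 are therefore a description of these libraries and no independent evidence. All 10 symbols matched 1 Ensembl identifier each among the 26128 genes listed, and 9 of them passed the filter on low counts that left 14671 genes to test. Slc40a1, the gene of the only known iron exporter of the cell, was left out by that filter.

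Double negative T (DNT) cells are T cells that carry CD3 on their surface but neither CD4 nor CD8. The study asked how the cytokine IL-33 acts on them. CD4+CD25- T cells of adult wild-type C57BL/6 mice, from the spleen by the labels and from spleen and lymph nodes by the methods, were converted in culture, with IL-2 and mature dendritic cells of DBA/2 mice, and sorted as CD3+NK1.1-CD4-CD8- cells. For all 6 libraries the sorted cells then spent 48 h on beads against CD3 and CD28, in 3 of them without IL-33 (control) and in 3 with 50 ng/ml of it. Neither the labels nor the methods say if replicates were separate mice, conversions or wells, so p-values measure only the spread between these libraries.

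The libraries held 20256342 to 22336050 counts. At that depth 3 counts, the most that a count of 0 allows from counting error alone, came to 0.135 to 0.148 CPM, the counts per 1000000 of a library total that is scaled between libraries by TMM. All 13 T cell identity genes on the list used were tested, Thy1 at 1150 ± 12.05 CPM in controls and 1177 ± 21.97 with IL-33 (mean ± SD, n = 3 per group) and Cd3g at 706 ± 36.6 and 776 ± 38.9. Of the 13 genes 2 were higher and 3 lower with IL-33 (adjusted p under 0.05 in edgeR), or 38.5% against 27.5% of all genes tested. The lower ones were the signalling genes Lck and Lat and the adhesion receptor gene Cd2, by 0.16 to 0.26 on the log2 scale. Cd4 was low, with 16 to 22 counts in control libraries and 5 to 11 with IL-33. Cd8a, in contrast, stood at 545 ± 13.6 CPM in controls and 400.2 ± 9.15 with IL-33 (mean ± SD, n = 3 per group), and Cd8b1 at 9.69 ± 1.65 and 16.3 ± 2.07. The sort on the absence of CD8 used antibody staining before the 48 h on beads, while these values are RNA after it. They do not tell how much CD8 protein the cells carried at either time. Klrb1c, the gene of NK1.1, stood at 33.5 ± 2.57 and 25.6 ± 1.16. Cd4, Cd8a, Cd8b1 and Klrb1c were looked up after other values had been seen. In these bulk samples a change in the RNA of each cell cannot be told apart from a change in the share of a kind of cell.

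Cells take up iron mainly as transferrin bound to the transferrin receptor, encoded by Tfrc. In the endosome the reductase Steap3 turns the iron into the form that the transporter encoded by Slc11a2 (DMT1) carries into the cytosol. Iron that is not used at once is held in ferritin, a shell of heavy and light chains encoded by Fth1 and Ftl1, or leaves through ferroportin, encoded by Slc40a1. Heme synthesis starts in the mitochondrion with an aminolevulinate synthase, encoded by Alas1 in most tissues and by Alas2 in red cell precursors, and ends with ferrochelatase, encoded by Fech, which inserts the iron. Hmox1 encodes the inducible heme oxygenase, which opens the heme ring and frees the iron. Activated T cells need iron to divide and are known for high levels of the transferrin receptor.

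Several of these mRNAs carry an iron-responsive element, a short hairpin to which the iron regulatory proteins bind when iron is scarce. In a 5′ UTR the bound protein blocks translation, and in the 3′ UTR of Tfrc it keeps the mRNA from being degraded. The hairpin was searched as a C, 5 bases, the loop CAGTGN and 5 bases that pair with the first 5 (A with T, G with C or G with T), on the sense strand of the annotated UTRs of GENCODE M21 transcripts. Of 22527 genes with a coding transcript 175 held a match, or 0.777%, 31 of them in a 5′ UTR and 144 in a 3′ UTR. Among the 10 genes, 5 held one. The sequences are shown because they are the regulatory feature that ferritin, the receptor, the exporter and the erythroid synthase share, which had no part in choosing them. Each line gives 27 bases, 5′ to 3′, as DNA letters, with the loop in capitals.
Fth1, 5′ UTR, chr19:9982733-9982759 (GRCm38, plus strand): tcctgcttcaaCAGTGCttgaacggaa
Ftl1, 5′ UTR, chr7:45459780-45459806 (minus strand): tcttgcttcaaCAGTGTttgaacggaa
Slc40a1, 5′ UTR, chr1:45925466-45925492 (minus strand): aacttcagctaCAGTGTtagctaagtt
Alas2, 5′ UTR, chrX:150547459-150547485 (plus strand): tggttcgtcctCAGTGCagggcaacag
Tfrc, 3′ UTR, match 1, chr16:32631220-32631246 (plus strand): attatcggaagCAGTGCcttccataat
Tfrc, match 2, chr16:32631599-32631625: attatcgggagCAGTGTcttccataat
Tfrc, match 3, chr16:32631664-32631690: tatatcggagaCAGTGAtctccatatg
Tfrc, match 4, chr16:32631711-32631737: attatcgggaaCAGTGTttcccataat
Of these genes Slc40a1 could not be tested, and the log2 fold changes of the others, given below, ran from 0.08 for Ftl1 to 2.24 for Alas2. Alas1, Fech, Hmox1, Slc11a2 and Steap3 held no match, which says only that the full pattern is not in their annotated UTRs. The search allowed no unpaired base in the stem. It would miss a hairpin that has such a base, so it cannot tell whether Slc11a2 or the others carry an element of another shape. Of 132 tested genes with a match 39 had an adjusted p under 0.05, or 29.5% against 27.5% of all genes tested, with 16 up and 23 down in the IL-33 group.

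With edgeR's quasi-likelihood test and Benjamini-Hochberg adjustment over all genes tested, 6 of 9 passed an adjusted p of 0.05 (Alas1, Alas2, Hmox1, Tfrc, Fth1 and Slc11a2), all of them higher with IL-33. Over all genes 27.5% passed that threshold, 13.6% of all genes being higher with IL-33. Alas2 and Slc11a2 were also past the study's threshold of a 1.5-fold change in either direction, which 4.87% of all genes passed together with the adjusted p. In the same 6 genes the CPM of the groups did not overlap, against 38.9% of all genes. The median log2 fold change of the 9 genes was 0.22, beside -6.3e-04 over all genes tested. Since these fold changes were known when the genes were chosen, nothing is read from the counts.

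**Figure D1:**
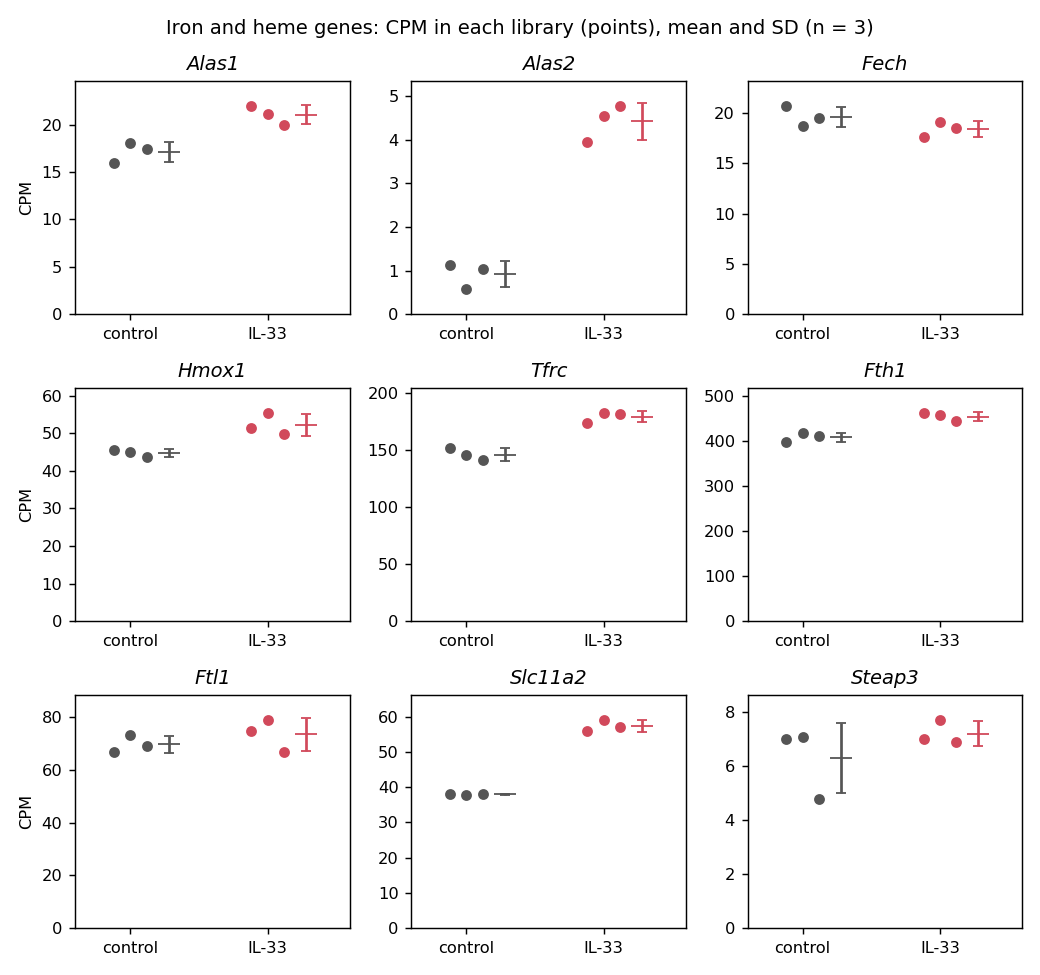
CPM of the 9 tested iron and heme genes in each of the 3 control libraries (grey points) and the 3 libraries with IL-33 (red points), with the mean and SD of each group beside them and every axis starting at 0. For Alas1, Alas2, Hmox1, Tfrc, Fth1 and Slc11a2 all IL-33 points sit above all control points, and for Fech, Ftl1 and Steap3 the groups overlap.

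Of the uptake genes, Tfrc and Slc11a2 were higher with IL-33 by the adjusted p. Tfrc (ENSMUSG00000022797, chromosome 16 from 32608920 to 32632794, GRCm38 as annotated in GENCODE M21) stood at 152, 146 and 141 CPM in the control libraries and at 174, 183 and 182 with IL-33. Every IL-33 library was above every control library. The level rose from 146 ± 5.51 CPM to 180 ± 4.84 (mean ± SD, n = 3 per group), or 0.30 ± 0.037 as log2 fold change and its standard error (edgeR, adjusted p = 6.6e-11).
Slc11a2 (ENSMUSG00000023030, chromosome 15 from 100387898 to 100425072) stood at 38.2, 37.8 and 38.0 CPM in controls and at 55.9, 59.2 and 57.0 with IL-33. The control libraries lay close together and the IL-33 libraries were all well above them. The level rose from 38.0 ± 0.209 CPM to 57.4 ± 1.68 (mean ± SD, n = 3 per group), or 0.59 ± 0.057 as log2 fold change and its standard error (edgeR, adjusted p = 8.0e-16) that lies just inside the fold change threshold. Without IL-33 replicate 2 it was 0.57 and outside it. Slc11a2 shares 402 exon bases with Gm5475 on the other strand, a gene with 0 to 9 counts a library.
Steap3 (ENSMUSG00000026389, chromosome 1 from 120190757 to 120272705), the endosomal reductase, had 7.02, 7.09 and 4.79 CPM in controls and 7.02, 7.73 and 6.89 with IL-33. The groups overlapped, and control replicate 3 was the lowest library. Its log2 fold change of 0.20 had a 95% interval from -0.10 to 0.49 and an adjusted p of 0.35 in edgeR, and without control replicate 3 it was 0.03 (adjusted p = 0.92 from edgeR). The interval gives the changes, no change among them, that these libraries leave possible.

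Of the ferritin genes only the heavy chain passed the test in the fit of all 6 libraries. Fth1 (ENSMUSG00000024661, chromosome 19 from 9980598 to 9985098), whose product oxidizes the iron as it enters the shell, stood at 397, 417 and 411 CPM in controls and at 463, 457 and 444 with IL-33. All IL-33 libraries were above all control libraries, by a small margin. The level rose from 409 ± 10.3 CPM to 455 ± 9.77 (mean ± SD, n = 3 per group), or 0.15 ± 0.029 as log2 fold change and its standard error (edgeR, adjusted p = 7.3e-06).
Ftl1 (ENSMUSG00000050708, chromosome 7 from 45457944 to 45459884), the light chain that helps the iron core to form, stood at 67.0, 73.2 and 69.0 CPM in controls and at 74.7, 79.1 and 66.7 with IL-33. IL-33 replicate 3 was below every control library while replicates 1 and 2 were above them all. The log2 fold change was 0.08 with a 95% interval from -0.02 to 0.17 (adjusted p = 0.27 from edgeR), and it was 0.14 without IL-33 replicate 3 (adjusted p = 0.033) and 0.02 without IL-33 replicate 2 (adjusted p = 0.83, both from edgeR). The per-length ratio of Fth1 to Ftl1 was 2.29, 2.20 and 2.30 in controls and 2.39, 2.23 and 2.57 with IL-33, groups that overlap (exact permutation test, two-sided, p = 0.3, where 3 libraries against 3 cannot give less than 0.1). The difference between the changes of the chains was thus within the spread of the libraries.
Both chains have processed copies in the genome that can take or lend reads. Ftl1-ps1 had 42 to 77 counts a library, Ftl2-ps 1 to 5 and Fth-ps2 3 to 18, against at least 1421 for Ftl1 and 8435 for Fth1. The overlapping Gm10252, which shares 355 exon bases with Ftl1 on the other strand, had 4 to 16.

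Slc40a1 (ENSMUSG00000025993, chromosome 1 from 45908068 to 45926523), the ferroportin gene, had 0 counts in all 3 control libraries, 3 counts in IL-33 replicate 1 and 0 in IL-33 replicates 2 and 3. Ferroportin mRNA was thus at or under the limit of detection in both groups, and no fold change can be given.
The ratio of Tfrc to Fth1 counts sets uptake beside storage within a library and needs no scaling between libraries. It was 0.383, 0.349 and 0.343 in controls and 0.376, 0.400 and 0.409 with IL-33. Control replicate 1 was above IL-33 replicate 1, so the groups overlapped, with a difference of 0.14 on the log2 scale (exact permutation test, two-sided, p = 0.2, smallest possible 0.1).

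**Figure D2:**
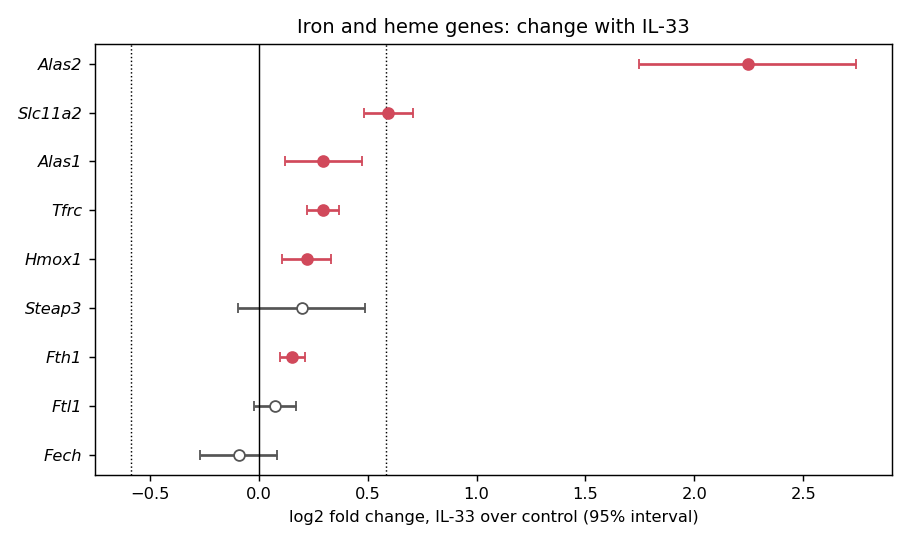
Log2 fold change (x axis, IL-33 over control) of the 9 tested iron and heme genes with 95% intervals from edgeR, filled red where the adjusted p was under 0.05 and open where not; dotted lines mark a 1.5-fold change in both directions. Alas2 at 2.24 stands far to the right of the others, which run from -0.09 for Fech to 0.59 for Slc11a2.

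The first enzyme of heme synthesis showed the largest change of the 10 genes, in its erythroid form. Alas2 (ENSMUSG00000025270, chromosome X from 150547375 to 150570638) had 24, 12 and 23 counts in the control libraries and 85, 95 and 106 with IL-33. The lowest IL-33 library was far above the highest control library. The level rose from 0.924 ± 0.291 CPM to 4.42 ± 0.421 (mean ± SD, n = 3 per group), or 2.24 ± 0.25 as log2 fold change and its standard error (edgeR, adjusted p = 8.7e-13), or 4.74-fold. Over 12 alternative fits the log2 fold change ran from 2.01 to 2.41.
Alas2 shares 311 exon bases with Apex2, a DNA repair gene on the other strand, and with no word on whether counting used the strand, reads from the pair cannot be told apart there. Apex2 had 300, 328 and 339 counts in controls and 270, 325 and 299 with IL-33, a log2 fold change of -0.14 (adjusted p = 0.34 from edgeR), with overlap of the groups.
Alas1 (ENSMUSG00000032786, chromosome 9 from 106233455 to 106248654), the form found in most tissues, stood at 15.9, 18.01 and 17.4 CPM in controls and at 21.95, 21.1 and 19.98 with IL-33. Every IL-33 library was above every control library. The level rose from 17.1 ± 1.08 CPM to 21.02 ± 0.988 (mean ± SD, n = 3 per group), or 0.30 ± 0.089 as log2 fold change and its standard error (edgeR, adjusted p = 0.0070), and the adjusted p was 0.058 without control replicate 1. The antisense gene 4930500F10Rik, which shares 465 exon bases with Alas1, had at most 1 count in any library.
The per-length ratio of Alas2 to Alas1 was 0.182, 0.0842 and 0.155 in controls and 0.463, 0.551 and 0.613 with IL-33, so Alas1 was the higher of the pair in every library. The groups did not overlap (exact permutation test, two-sided, p = 0.1, the smallest possible).

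The last step and the breakdown of heme moved less. Fech (ENSMUSG00000024588, chromosome 18 from 64452914 to 64490251) stood at 20.7, 18.7 and 19.5 CPM in controls and at 17.6, 19.1 and 18.5 with IL-33. The groups overlapped, and the log2 fold change of -0.09 had a 95% interval from -0.27 to 0.08 (adjusted p = 0.49 from edgeR).
Hmox1 (ENSMUSG00000005413, chromosome 8 from 75093621 to 75100589) stood at 45.6, 45.1 and 43.6 CPM in controls and at 51.3, 55.4 and 49.9 with IL-33, with no overlap of the groups. The level rose from 44.8 ± 1.06 CPM to 52.2 ± 2.89 (mean ± SD, n = 3 per group), or 0.22 ± 0.057 as log2 fold change and its standard error (edgeR, adjusted p = 0.0014). Hmox1 is also known for high levels in macrophages. Of 12 macrophage and monocyte markers 3 had a mean of at least 1 CPM. Cd68, a lysosomal protein gene, rose by 0.19 on the log2 scale (adjusted p = 0.026) and Itgam, an integrin gene, by 0.88 (adjusted p = 1.3e-04), while Cd14 had a log2 fold change of 0.69 (adjusted p = 0.12, all from edgeR). The summed CPM of the list was 32.4 to 35.8 in controls and 37.9 to 43.4 with IL-33. The defining markers Csf1r, Adgre1 and Lyz2 had at most 13 counts in any library, and the part of such cells in the level of Hmox1 was not tested.

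Alas2 is known from red cell precursors, so the markers of those cells were read beside it. Of 20 erythroid markers on a list 14 had a row in the table, 5 could be tested and 4 had a mean of at least 1 CPM. The listed symbol Ahsp matched no gene name in the annotation used, so that gene was not looked up. The alpha globin gene Hba-a1 had 8 to 9 counts in control libraries and 1 to 5 with IL-33, and Klf1, the erythroid Krüppel-like factor, 5 to 11 and 5 to 9. Hba-a1 was lower with IL-33 in every library, and the groups overlapped for Klf1. Gata1, a factor that drives Alas2 in red cell precursors, had a log2 fold change of -0.38 (adjusted p = 0.22 from edgeR), from 3.06 ± 0.0956 to 2.34 ± 0.771 CPM (mean ± SD, n = 3 per group). Car2, a carbonic anhydrase gene, was at 358 ± 12.1 CPM in controls and fell by 0.40 on the log2 scale (adjusted p = 2.6e-20 from edgeR), and it made up most of the summed level of the list, 354 to 378 CPM in controls and 267 to 284 with IL-33.
Nfe2, a blood cell transcription factor that binds globin control regions, was the 1 tested erythroid marker that rose, and it is named after its values had been seen. It had 14, 11 and 15 counts in controls and 38, 42 and 34 with IL-33, or 1.48 ± 0.35 as log2 fold change and its standard error (edgeR, adjusted p = 5.0e-04) with no overlap of the groups. Sptb and Rhd, which were also tested, had log2 fold changes of -0.47 and -0.69 (adjusted p = 0.24 and 0.17 from edgeR).
Other cell types were measured in the same way. The summed CPM of 10 mast cell and basophil markers was 39.8 to 44.0 in controls and 28.6 to 33.3 with IL-33. The most abundant of them, the protease genes Cma1 and Cpa3, fell by 0.30 (adjusted p = 0.0076) and 0.62 (adjusted p = 8.3e-05) on the log2 scale in edgeR. Mcpt8 and Hdc, which were also tested, had log2 fold changes of -0.43 and 0.22 (adjusted p = 0.056 and 0.65 from edgeR). Among the untested markers, Ms4a2, Gata2 and Tpsb2 had 0 counts in every IL-33 library and at most 14 in controls. Fcer1a and Prss34 had up to 5 and 9 counts with IL-33. Dendritic cell markers summed to 100.3 to 103 CPM in controls and 75.4 to 83.6 with IL-33. The most abundant were Itgax, which fell by 1.07, and H2-Ab1, which rose by 0.29 on the log2 scale (adjusted p = 4.3e-28 and 0.0012 in edgeR). Batf3 rose by 1.28 and Cd74 fell by 0.58 (adjusted p = 4.0e-05 and 0.0054 in edgeR). Xcr1 and Zbtb46 had log2 fold changes of 0.11 and 0.04 (adjusted p = 0.52 and 0.91 from edgeR). Flt3 had at most 2 counts in any library and H2-Aa at most 10. B cell markers summed to 5.02 to 5.75 and 5.44 to 6.57 CPM, Cd79a and Cd79b having log2 fold changes of -0.20 and 0.26 (adjusted p = 0.69 and 0.32 from edgeR). The part of any of these cells in the 10 genes was not tested.

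Upstream of the Alas2 start site lies a match to the letters AGATAA, the core that GATA factors bind, searched on both strands in the 300 bases around each start site in the RefSeq promoter table of GRCm38.p6. Such a match is in 11.2% of the 32851 promoters of that length. It is shown here, for the gene with the largest change, in the 100 bases before the start site at chrX:150547317-150547416 (plus strand), in capitals where the reverse strand reads AGATAA.
Alas2 promoter: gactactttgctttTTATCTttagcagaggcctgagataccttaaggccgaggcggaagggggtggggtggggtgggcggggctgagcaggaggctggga
The first base of the match is at position -86 from the RefSeq start site. In GENCODE M21 Alas2 starts at 150547375, inside the bases shown, so that distance depends on the start site used. A match of this kind was also in 1 of 4 promoters of Steap3 and in none of those of Alas1, Tfrc, Fth1 and Ftl1. The core ACGTG of the hypoxia-inducible factors, held by 19.6% of all promoters, was at 1 site in Tfrc, which lies in both of its overlapping promoter windows, and in none of the others listed, and the antioxidant core TGACNNNGC, held by 12.4%, was in none of them. A match is a description of the letters and says nothing of whether a factor binds there.

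The genes were then set in order by level, as FPKM, here the CPM divided by the length of the merged exons in kilobases. Fth1 was highest, at 118 ± 2.96 FPKM in controls and 131 ± 2.82 with IL-33 (mean ± SD, n = 3 per group), followed by Ftl1 at 52.0 ± 2.38 and 54.9 ± 4.70. Hmox1 at 25.6 ± 0.606 and 29.8 ± 1.65 was next to Tfrc at 23.7 ± 0.892 and 29.0 ± 0.783, and this pair overlapped with IL-33. Below them came Slc11a2 at 5.98 ± 0.0329 and 9.03 ± 0.265 FPKM and Alas1 at 2.77 ± 0.174 and 3.40 ± 0.160. Fech stood at 1.42 ± 0.0739 in controls and 1.33 ± 0.0550 with IL-33, and Steap3 at 1.10 ± 0.229 and 1.26 ± 0.0790. Alas2 was ninth of the 10 genes in controls, at 0.384 ± 0.121 FPKM, and seventh with IL-33, at 1.84 ± 0.175, above Fech and Steap3, which overlapped each other there. With the length of the longest transcript in place of merged exons Tfrc came before Hmox1 and Fech stayed above Alas2 in both groups, so those places depend on the length used.

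**Figure D3:**
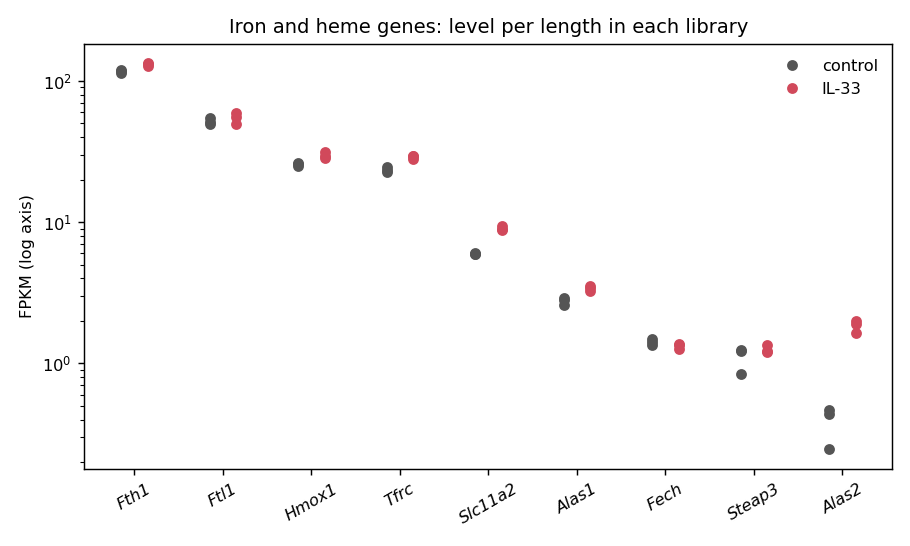
Level per length (y axis, FPKM on a log scale) of 9 iron and heme genes in each control library (grey) and each library with IL-33 (red), ordered by the mean over all libraries. Fth1 at 118 FPKM in controls is highest, and Alas2 is the gene whose IL-33 points lie far above its control points, at 1.84 against 0.384 FPKM.

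For the 2 genes past both thresholds, the most similar patterns over the 6 libraries were picked by Pearson's r of log2 CPM among genes with a mean of at least 1 CPM. For Alas2 these were Kdm4b, a histone demethylase gene (r = 0.998), Dusp6, a MAP kinase phosphatase gene (r = 0.996), and Xpa, a DNA repair gene (r = 0.996). For Slc11a2 they were Rnf13 (r = 0.999), Birc2 (r = 0.999) and Alox5, the gene of 5-lipoxygenase (r = 0.998). All 6 were higher with IL-33, by 0.27 for Kdm4b to 0.72 for Alox5 on the log2 scale. With 3 libraries on each side any gene that separates the groups has a high r, so the values order genes and show nothing more.

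The rest of heme synthesis, on a list of 13 further enzymes, carriers and cofactors, had smaller changes. Of 12 tested genes 4 were higher and 1 lower with an adjusted p under 0.05 in edgeR, or 41.7% against 27.5% of all genes, none past the fold change threshold, and their median change was 0.06 on the log2 scale. Cpox, the coproporphyrinogen oxidase, rose from 29.1 ± 1.06 CPM to 34.2 ± 0.711 (mean ± SD, n = 3 per group), a log2 fold change of 0.24 (adjusted p = 0.0048 from edgeR). Fam210b, a mitochondrial protein gene that acts on iron supply to heme synthesis, rose by 0.22 (adjusted p = 0.015), and Tmem14c, the carrier of a heme precursor, fell by 0.22 on the log2 scale (adjusted p = 8.5e-05 from edgeR). Among the enzymes between the synthases and Cpox, Urod rose by 0.20 (adjusted p = 0.047), while Alad had a log2 fold change of -0.03 (adjusted p = 0.83) and Uros of -0.31 (adjusted p = 0.054, all from edgeR); these enzymes are named after their values had been seen. With DESeq2 only 2 genes of the list passed.

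Genes that break down, carry or sense heme moved in both directions. Of 15 tested among the 18 on the list, 4 were higher and 4 lower (adjusted p under 0.05 in edgeR), 53.3% against the 27.5% of all genes, and 2 were past both thresholds. The lower ones were sensors, though not every sensor on the list was lower. Eif2ak1, a heme-regulated kinase gene named after its values had been seen, had a log2 fold change of 0.13 (adjusted p = 0.074 from edgeR) with no overlap of the groups. Nr1d1, which encodes the heme-binding clock repressor REV-ERBα, had 3.11, 2.66 and 4.02 CPM in controls and 1.58, 1.19 and 1.62 with IL-33. All IL-33 libraries were below all controls, with a log2 fold change and standard error of -1.15 ± 0.25 (edgeR, adjusted p = 8.9e-05). Nr1d1 shares 263 exon bases with Thra on the other strand, whose log2 fold change was 0.24 (adjusted p = 0.37 from edgeR). Its relative Nr1d2 fell from 17.98 ± 0.798 CPM to 12.03 ± 0.944 (mean ± SD, n = 3 per group), a log2 fold change of -0.58 (adjusted p = 1.8e-06 from edgeR).
Bach1, whose product is released from DNA by heme and represses Hmox1 and ferritin genes, is named with Bach2 after their values had been seen. Bach1 stood at 69.7, 69.7 and 70.2 CPM in controls and 55.4, 53.4 and 59.2 with IL-33, or -0.32 ± 0.05 as log2 fold change and its standard error (edgeR, adjusted p = 8.3e-08). Bach2, a related repressor that keeps T cells from full effector differentiation, fell by 0.27 on the log2 scale (adjusted p = 0.032 from edgeR).
The higher genes included heme carriers. Slc48a1, which moves heme out of the lysosome, was at 76.3, 78.8 and 80.9 CPM in controls and 100.1, 99.5 and 100.4 with IL-33, a log2 fold change of 0.35 (adjusted p = 2.0e-11 from edgeR). It shares 29 exon bases with Hdac7 on the other strand, which rose by 0.41 (adjusted p = 7.5e-18). Abcg2, an exporter of heme precursors and drugs, rose from 9.41 ± 1.14 CPM to 13.7 ± 1.39 (mean ± SD, n = 3 per group), a log2 fold change of 0.54 (adjusted p = 1.0e-04). Lrp1, the receptor for heme bound to hemopexin, was past both thresholds at 0.60 (adjusted p = 0.022 from edgeR) and rested on 37 to 96 counts a library.

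**Figure D4:**
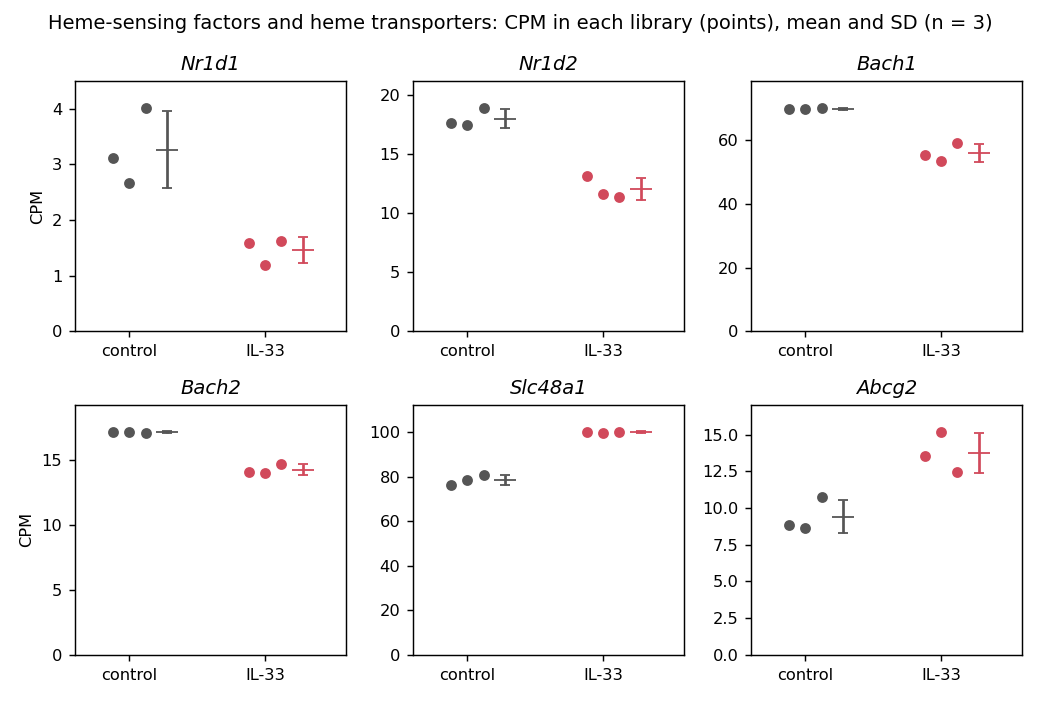
CPM of 4 heme-sensing factors (Nr1d1, Nr1d2, Bach1, Bach2) and 2 heme carriers (Slc48a1, Abcg2) in each control library (grey points) and each library with IL-33 (red points), with group means and SDs and axes from 0. The 4 factors shown lie lower with IL-33 and the 2 carriers higher, with no overlap between groups in any panel.

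Among other iron transporters and the iron sensors no gene was past both thresholds. Of 18 other transport genes 6 could be tested, and 2 were higher with an adjusted p under 0.05 in edgeR, or 33.3% against 27.5% of all genes. The listed symbol Tf matched no gene name in the annotation used, so that gene was not looked up. Slc25a37 (mitoferrin-1, the carrier that takes iron into mitochondria) rose by 0.16 (adjusted p = 0.0028) and Slc39a14, a zinc and iron transporter gene, by 0.13 on the log2 scale (adjusted p = 0.0096 from edgeR). Steap1, Steap2, Steap4, Heph and Hephl1 had at most 1 count in any library. Of 10 tested sensing and regulation genes 2 were higher and 2 lower, or 40% against the same 27.5%. Aco1, which encodes iron regulatory protein 1, the protein that binds the hairpins above, rose from 53.5 ± 2.79 CPM to 61.2 ± 3.11 (mean ± SD, n = 3 per group), a log2 fold change of 0.19 (adjusted p = 0.0025 from edgeR). Ireb2, encoding iron regulatory protein 2, had a log2 fold change of -0.02 (adjusted p = 0.81 from edgeR) and is named after its values had been seen. Epas1, which encodes the hypoxia-inducible factor HIF-2α, was abundant at 514 ± 2.17 CPM in controls and rose by 0.28 on the log2 scale (adjusted p = 3.2e-16), and Ptpa, a phosphatase activator gene, fell by 0.12 (adjusted p = 0.014 from edgeR).

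Iron-sulfur cluster assembly, the other main use of mitochondrial iron, had few calls. Of 27 tested genes 4 were higher and 1 lower with an adjusted p under 0.05 in edgeR, 18.5% against 27.5% of all genes, and their median change was 0.02 on the log2 scale. Hscb, a co-chaperone that hands on new clusters, rose from 32.2 ± 2.12 CPM to 41.7 ± 4.71 (mean ± SD, n = 3 per group), a log2 fold change of 0.37 (adjusted p = 6.4e-06 from edgeR). Mms19, a targeting factor for clusters, rose by 0.18 (adjusted p = 2.4e-04) and Bola3, a mitochondrial assembly factor gene, fell by 0.27 on the log2 scale (adjusted p = 0.025 from edgeR).
Hmox1, Fth1 and Ftl1 are also known targets of NRF2, the factor of the antioxidant response, so 20 of its targets outside iron handling were set beside them. Of 19 tested genes 7 were higher and 4 lower by the adjusted p of edgeR, or 57.9% against 27.5% of all genes, and their median change was 0.07 on the log2 scale. Me1, the cytosolic malic enzyme, was the 1 gene past both thresholds, at 12.1, 11.3 and 10.8 CPM in controls and 25.5, 21.4 and 22.6 with IL-33, a log2 fold change of 1.03 (adjusted p = 2.7e-16). Osgin1, an oxidative stress gene, and Abcc1, a glutathione conjugate exporter, rose by 0.36 (adjusted p = 9.9e-12) and 0.34 (adjusted p = 2.0e-12) on the log2 scale. Gclc, the catalytic subunit of the enzyme that starts glutathione synthesis, fell by 0.50 on the log2 scale (adjusted p = 1.2e-10, all from edgeR). The part of NRF2 in the levels of Hmox1, Fth1 and Ftl1 was not tested.

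**Figure D5:**
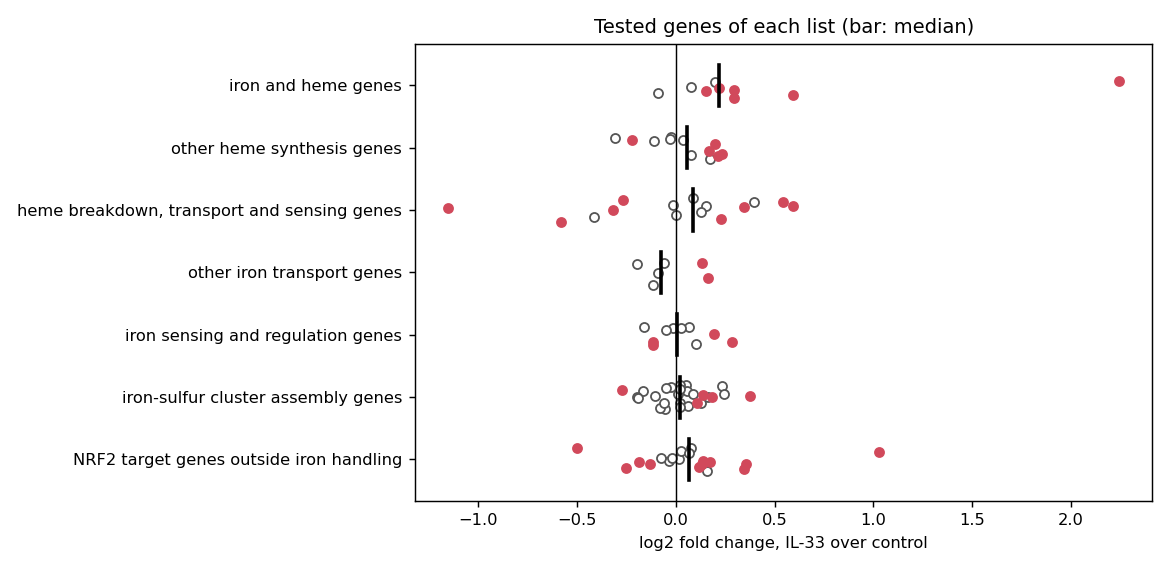
Log2 fold change (x axis, IL-33 over control) of each tested gene of the iron and heme genes and of 6 related lists (rows), filled red where the adjusted p was under 0.05 and open where not, with a bar at each list's median. The medians run from -0.07 for other iron transport genes to 0.22 for the iron and heme genes, and genes of heme breakdown, transport and sensing spread to both sides, down to -1.15 for Nr1d1.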

How the data were processed

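RNA of 6 libraries of DNT cells was compared, 3 control and 3 with IL-33, grouped by the sample titles. The deposited values are raw counts per gene, not normalized, and a mean over all libraries of counts divided by size factors (a signal column named as in DESeq2), deposited by the authors and not used. The submitters' processing notes name Bowtie 0.12.2 and mm8, with no role given. How reads were counted, and with what annotation and strand setting, is not given in the sources used here. For the library kit the labels name TruSeq and the paper NEBNext Ultra. Of 26128 Ensembl identifiers, 26072 had a symbol in the name tables and 26086 were in GENCODE M21 (GRCm38), the source of positions, exon lengths and UTRs, which is not the build that the notes name. Promoters came from the RefSeq table (GRCm38.p6), and those of Alas1, Alas2, Fth1, Ftl1, Steap3 and Tfrc were read. Entries on chromosome 18, where Fech lies, were left out for the 10 genes.

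Genes were filtered with filterByExpr (minimum count 10, minimum total 15), scaled by TMM and compared in edgeR 4.0.16 (R 4.3.3) by the robust quasi-likelihood test, two-sided, with Benjamini-Hochberg adjustment over 14671 genes. The thresholds, an adjusted p of 0.05 and a 1.5-fold change, are those of the study, whose text names no tool. CPM are TMM-scaled. Means and SDs are over n = 3 libraries, and 95% intervals come from the fit. The fits were tested on simulated data. Pairs of replicates differed by more than sampling noise (chi-square per gene of 2.64 to 3.67).

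The 10 genes and all lists were chosen with earlier results of these data known. From each related list the text names the genes past both thresholds and the 3 largest changes past the adjusted p alone. From marker lists it names the 2 most abundant, or all with a mean of at least 1 CPM where these were under 4. It also names each gene with listed counts that overlaps a member, and pseudogenes that carry the name of a member. Copies under other names were not searched for. Other marker genes in the text, such as Hba-a1, Klf1, Csf1r, Ms4a2 and Flt3, lie outside this rule and are named with their values known. Alternatives were DESeq2 1.42.0, limma-voom (limma 3.58.1), edgeR with DESeq2 size factors, edgeR without the filter and with a stricter one (1 CPM in all libraries of at least 1 group), a replicate block, and each library left out in turn.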

Additional observations from a re-analysis of the deposited data

How the results depend on the processing

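Over 12 alternative fits each, the 9 tested iron and heme genes kept their direction. They kept their side of the adjusted p threshold too, except Alas1 without control replicate 1 and Ftl1 without IL-33 replicate 3. The number past both thresholds was 1 to 2 with each library left out in turn, 1 being without IL-33 replicate 2, where Slc11a2 fell under the fold change threshold. With DESeq2 the number past the adjusted p threshold was 2 for other heme synthesis genes, 1 for other iron transport genes and 3 for iron-sulfur cluster assembly genes. With each library left out these ran from 2 to 4, from 1 to 2 and from 3 to 6 (5, 2 and 5 with all libraries), the lowest being without IL-33 replicate 2 for the first, without control replicate 2 or IL-33 replicate 2 for the second and without IL-33 replicate 1 for the third. The cause was not tested. The order by level per length kept 6 of 10 places with the longest transcript as the length. The replicate numbers are shared between groups. Over all tested genes the deviations of same-numbered libraries correlated by 0.012, 0.003 and 0.011, and those of other number pairs by -0.014 to 0.003. These deviations also carry counting noise, so the values cannot decide whether libraries were paired. With the replicate block 666 genes in all were past both thresholds in place of 714, and 501 with DESeq2. Depth limits Slc40a1, which could not be fitted, and leaves Alas2 on 12 to 24 counts in controls.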
